A study of Mus musculus with 1 sample.

Results

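Uchl1, Uchl3 and Uchl5 encode 3 ubiquitin C-terminal hydrolases, and were taken by symbol from the 27998 genes listed for 1 single-cell library of mouse testis cells. The genes were selected on their UMI counts in the germ and somatic cells of this library, so their levels are given as descriptions without tests. The library came from 3 Zscan2+/+ (wild-type) C57BL/6 mice at postnatal day 8, whose cells were pooled in equal numbers. THY1+ cells, a fraction rich in undifferentiated spermatogonia, were collected with magnetic beads and mixed with unselected testis cells, so cell shares followed from that mixture. No Zscan2-/- cells were analysed here. As all cells came from 1 pooled library there were no biological replicates, and every interval below is an exact 95% interval that covers counting error only.

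Ubiquitin C-terminal hydrolases are cysteine proteases that cut ubiquitin from small adducts and precursors. UCHL1, also called PGP9.5, is abundant in neurons and is a common marker of spermatogonia in testis sections. UCHL3 acts on ubiquitin and on the ubiquitin-like protein NEDD8, whereas UCHL5, also called UCH37, binds the regulatory particle of the proteasome through ADRM1 and the INO80 chromatin remodeler through NFRKB. The study used Uchl1 as a marker of differentiating spermatogonia, and all 3 genes were held out of cluster naming here.

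In GENCODE M21 on GRCm38, Uchl1 (ENSMUSG00000029223) lies on the plus strand at chr5:66676091-66687234, and transcript Uchl1-201 has 9 exons. Uchl3 (ENSMUSG00000022111) lies on the plus strand at chr14:101653967-101696125, and Uchl3-201 also has 9 exons. Uchl5 (ENSMUSG00000018189) lies on the plus strand at chr1:143777272-143807466, and Uchl5-201 has 11 exons. The coding sequences span 223, 230 and 328 codons before the stop, respectively, so Uchl5 carries the longest open frame. A further family gene, Uchl4 (ENSMUSG00000035337), is a gene of 1 exon on the plus strand at chr9:64235201-64236362. The catalytic cysteine is encoded by codon 90 of Uchl1, 95 of Uchl3 and of Uchl4, and 88 of Uchl5, which lies in exon 4 of the 3 genes with introns. The 27 coding bases centred on that codon are shown because this is the catalytic site by which the members are grouped, with the cysteine codon in capitals.
Uchl1, chr5:66679744-66679770: atcggaaactccTGTggtaccatcggg
Uchl3, chr14:101666599-101666625: atcagcaatgccTGTggaacgattgga
Uchl5, chr1:143794280-143794306: attaataatgctTGTgccactcaggct
Uchl4, chr9:64235509-64235535: atcagcaatgccTGTggaacgattgga
Across these 27 bases Uchl1 matched Uchl3 at 19 positions and Uchl5 at 12, and Uchl3 matched Uchl5 at 15. Uchl3 and Uchl4 were identical there, and 97.4% of their 693 aligned coding bases were the same. Their transcripts shared an unbroken run of 150 bases, so that short reads from them could be difficult to separate. The longest run shared by any pair of Uchl1, Uchl3 and Uchl5 was 12 bases.

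Counts were available for 970 barcodes with 2655 to 44915 unique molecular identifiers (UMIs) each, and 920 cells were kept. These were 324 germ cells and 596 somatic cells. The 6 germ cell markers summed to 1350 UMIs per 1000000 UMIs of the class (CPM) in germ cells and 31.7 CPM in somatic cells. The germ cells comprised 112 spermatogonial stem cell (SSC)-like cells, 79 progenitor-like cells and 133 differentiating-like cells. The last were split into a cluster of 101 cells led by Stra8 and Crabp1, hereafter the Crabp1-led cluster, and a cluster of 32 cells led by Esx1 and Prss50, hereafter the Esx1-led cluster. Gfra1 and Ret, receptor genes of undifferentiated spermatogonia that were not used for naming, had 57.7 and 74.8 CPM in SSC-like cells but 2.39 CPM each in the Crabp1-led cluster. Values of these clusters alone do not check the split between SSC-like and progenitor-like cells, named at marker scores of 0.616 and 0.516. The somatic cells fell into Sertoli-like (255 cells), stromal-like (186), myoid-like (94 cells with peritubular myoid markers), macrophage-like (35) and T cell-like (26) clusters. The T cell-like cells had 1272 CPM of T cell markers but also 4054 CPM of peritubular myoid markers, so that their label is less certain than the others. Red blood cell markers had 7116 CPM in progenitor-like cells, of which 1 barcode held 98.6%, and 98.3 CPM without it. That barcode had no UMI of Uchl1, Uchl3 or Uchl5, and without it the progenitor-like over SSC-like ratios were 1.56 for Uchl1, 0.809 for Uchl3 and 0.985 for Uchl5.

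Uchl1 was the member most concentrated in germ cells. Germ cells held 4065 Uchl1 UMIs and somatic cells 251, which gave 732 CPM (709 to 755) and 46.8 CPM (41.2 to 53.0). The ratio of germ over somatic cells was 15.6 (13.8 to 17.8). It was 43.5 with a mitochondrial limit of 5%, which kept 67 germ cells (median of 5316 UMIs) and 54 Sertoli-like cells. In the main run 255 cells were Sertoli-like, so that limit also changed which cells were compared. Without the Sertoli-like cluster of 78 cells, which had the highest somatic level, it was 31.1. In UMIs per cell, which are not divided by the greater depth of germ cells, it was 29.8. Lower ratios were 12.9 with germ cells taken by a UMI of Ddx4 or Dazl and 14.3 at resolution 1.2. Uchl3 was detected in both compartments, with 883 UMIs or 159 CPM (149 to 170) in germ cells and 324 UMIs or 60.5 CPM (54.1 to 67.4) in somatic cells, a ratio of 2.63 (2.31 to 3.00). Uchl5 had 358 UMIs or 64.4 CPM (57.9 to 71.5) in germ cells and 160 UMIs or 29.9 CPM (25.4 to 34.9) in somatic cells, a ratio of 2.16 (1.79 to 2.62). All 3 members were thus at least 2-fold higher in germ cells, as were 23.6% of the 9182 genes with at least 100 UMIs in the library. The ratio of Uchl1 exceeded that of 97.3% of these genes, whereas Uchl3 exceeded 84.6% and Uchl5 78.9%. Since this contrast was known when the genes were chosen, these ranks only place the members among all genes.

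Because the capture of 3′ ends can differ between genes, the paralogs were compared by the ratio of their germ over somatic ratios and not by their levels. The germ over somatic ratio of Uchl1 was 5.94 times that of Uchl3 (4.94 to 7.15) and 7.23 times that of Uchl5 (5.73 to 9.12). Uchl3 and Uchl5 could not be separated by the same measure, with a ratio of 1.22 (0.965 to 1.53). Uchl1 also differed from Uchl3 when the germ cells were set against stromal-like cells alone (14.5, 9.29 to 23.1) or Sertoli-like cells alone (3.996, 3.18 to 5.01).

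**Figure D1:**
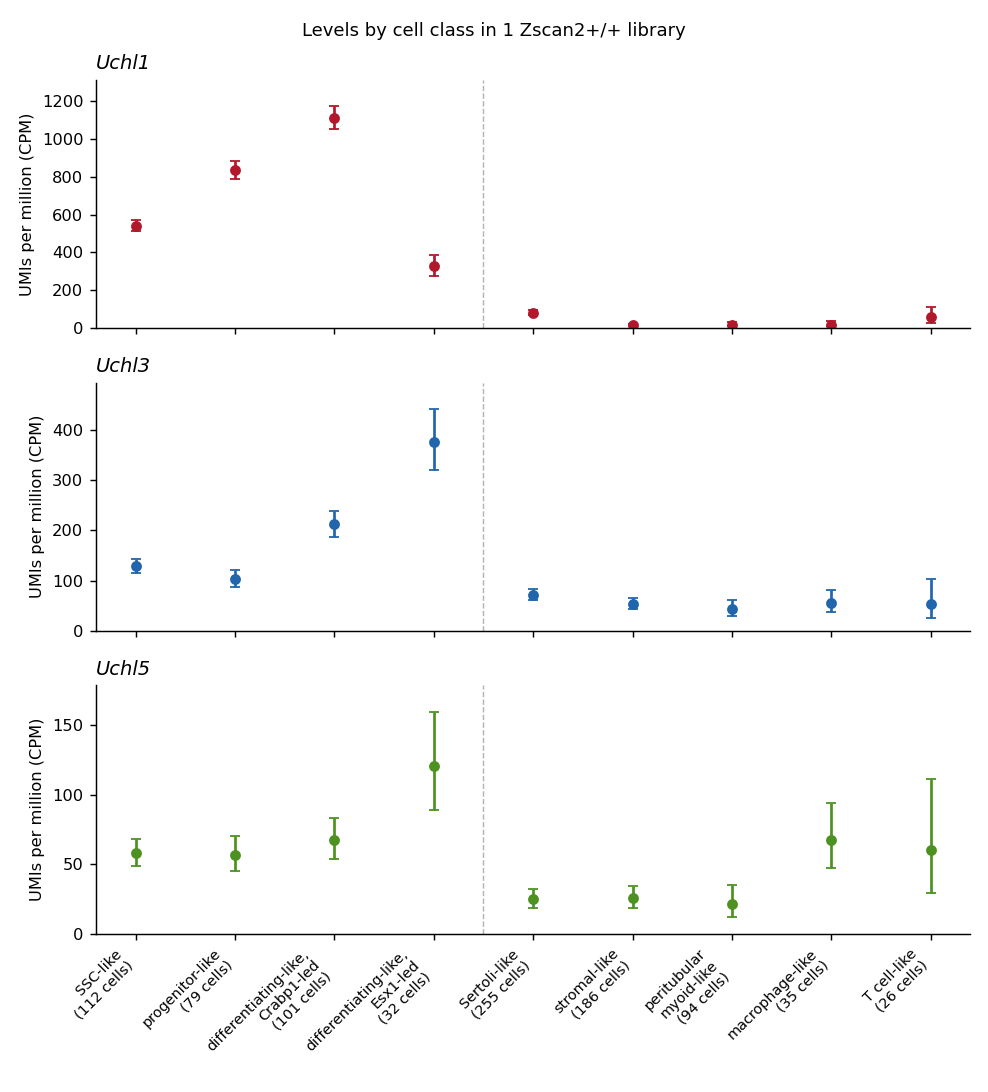
Levels of Uchl1, Uchl3 and Uchl5 in counts per 1000000 UMIs (CPM, linear axes that start at 0) in 9 cell classes of 1 library, with exact 95% Poisson intervals as bars and germ cell classes left of the dashed line. Uchl1 had its lowest germ cell level, 327 CPM, in the Esx1-led cluster, where Uchl3 and Uchl5 had their highest levels, 377 and 121 CPM.

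Among germ cells, the level of Uchl1 was 542 CPM (513 to 572) in SSC-like cells and 836 CPM (790 to 884) in progenitor-like cells. It was 1112 CPM (1054 to 1172) in the Crabp1-led cluster and 327 CPM (274 to 388) in the Esx1-led cluster. The 4 intervals did not overlap, with the Crabp1-led cluster highest and the Esx1-led cluster lowest. They leave out variation between cells, which exceeded counting error. The standard deviation over the mean of the CPM of each cell was 0.714 in SSC-like cells, where counting error alone gave 0.295. In the same order it was 0.533 against 0.290 in progenitor-like cells, 0.461 against 0.323 in the Crabp1-led cluster and 0.674 against 0.558 in the Esx1-led cluster. The level in the Esx1-led cluster was 0.295 times that in the Crabp1-led cluster (0.245 to 0.352), and 0.604 times that in SSC-like cells (0.502 to 0.723). Which cells formed these clusters changed the size of the former ratio. It was 0.506, short of 2-fold, when clusters and levels came from separate UMIs of each cell (a count split at resolution 1.2). With vst variable genes it was 0.594, but both clusters were other ones. There 81 cells led by Stra8, Cited1 and Esx1 were set against 70 cells of low depth (median of 4037.5 UMIs). The ratio of progenitor-like over SSC-like cells was 1.54 (1.43 to 1.67), below the 2-fold threshold that 3.78% of 9151 genes passed upward and 6.97% downward. Between the differentiating-like clusters, 18.9% of 9055 genes were at least 2-fold lower in the Esx1-led cluster. Uchl1 was itself among the 10 leading genes of the Crabp1-led cluster. It had been held out of the markers, and also of the variable genes, which changed nothing because no member was among them.

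Uchl3 followed another order. It had 128 CPM (115 to 143) in SSC-like cells and 103 CPM (87.1 to 121) in progenitor-like cells, whose intervals overlapped, and the ratio of progenitor-like over SSC-like cells was 0.802 (0.656 to 0.978). This difference did not hold under all settings, as the ratio was 1.01 with 20 principal components and its interval included 1 without a mitochondrial limit, with at least 200 genes, with vst variable genes, with both count splits and without mitochondrial and ribosomal protein genes in the total. The level was 212 CPM (188 to 239) in the Crabp1-led cluster and 377 CPM (319 to 441) in the Esx1-led cluster, a ratio of 1.77 (1.44 to 2.17) of the latter over the former. The Esx1-led cluster was thus highest for Uchl3 and lowest for Uchl1 among the germ cell clusters.

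Uchl5 had 58.1 CPM (48.9 to 68.4) in SSC-like cells, 56.7 CPM (45.1 to 70.4) in progenitor-like cells and 67.6 CPM (54.0 to 83.6) in the Crabp1-led cluster, which did not differ beyond counting error. In the Esx1-led cluster it had 121 CPM (89.2 to 159), which was 1.78 times the Crabp1-led cluster (1.23 to 2.57) on 49 and 85 UMIs. With the count split at resolution 1.2 this ratio was 1.41 with an interval that included 1. Clusters from vst variable genes gave 1.01, but this was another contrast. There 81 cells led by Stra8, Cited1 and Esx1 were set against 70 cells of low depth. Both Uchl3 and Uchl5 stayed below the 2-fold threshold that 12.0% of 9055 genes passed upward in the Esx1-led cluster. Between these clusters the ratio of Uchl3 was 6.02 times that of Uchl1 (4.57 to 7.93) and the ratio of Uchl5 was 6.05 times that of Uchl1 (3.99 to 9.12), whereas the ratios of Uchl3 and Uchl5 could not be separated (0.994, 0.652 to 1.52).

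The depth of the classes differed and moved with part of these values. The median depth was 22293 UMIs per cell in SSC-like cells, 19446 in progenitor-like cells, 8530 in the Crabp1-led cluster and 12208 in the Esx1-led cluster. Without division by depth, Uchl1 had a mean of 11.8 UMIs per cell in SSC-like cells, 15.3 in progenitor-like cells, 13.8 in the Crabp1-led cluster and 4.16 in the Esx1-led cluster. The Esx1-led cluster remained lowest, but the Crabp1-led cluster was no longer highest. For all differentiating-like cells over SSC-like cells, the ratio of Uchl1 was 1.70 in CPM (1.58 to 1.83) and 0.973 in UMIs per cell. The corresponding ratios of Uchl3 were 1.97 and 1.13, and those of Uchl5 1.39 and 0.795, so none of the members passed 2-fold here, whereas 7.97% of 9163 genes did upward and 9.51% downward in CPM. These counts of all differentiating-like cells together cannot tell fewer transcripts of all genes per cell from a larger share of Uchl1. Cells of the Crabp1-led cluster with a depth nearer that of SSC-like cells are given separately below.

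The Crabp1-led cluster included 51 cells of a germ cell cluster of low depth (median of 3905 UMIs in its 62 cells). The stage label of such shallow cells depended on the settings. With the count split, a shallow cluster of 42 cells was named progenitor, at marker scores of 0.0521 against 0.0242 for differentiating. At resolution 1.2 of the count split the same name went to a shallow cluster of 50 cells. With at least 200 genes, a cluster of 66 cells (median of 4037.5 UMIs) was left unnamed. Uchl1 had 1474 CPM (1330 to 1629) in the 51 shallow cells of the Crabp1-led cluster and 1018 CPM (956 to 1082) in its other 50 cells. Those 50 cells had a median depth of 20269 UMIs and a mean of 20.3 Uchl1 UMIs per cell, which was 1.72 times that of SSC-like cells. Against these 50 cells the Esx1-led cluster still had 0.322 times the level of Uchl1 (0.266 to 0.386). Uchl3 had 220 CPM in the shallow cells and 210 CPM in the deeper ones, and the ratio of the Esx1-led cluster over the deeper cells was 1.79 (1.44 to 2.22). For Uchl5 that ratio was 2.08 (1.39 to 3.09).

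**Figure D2:**
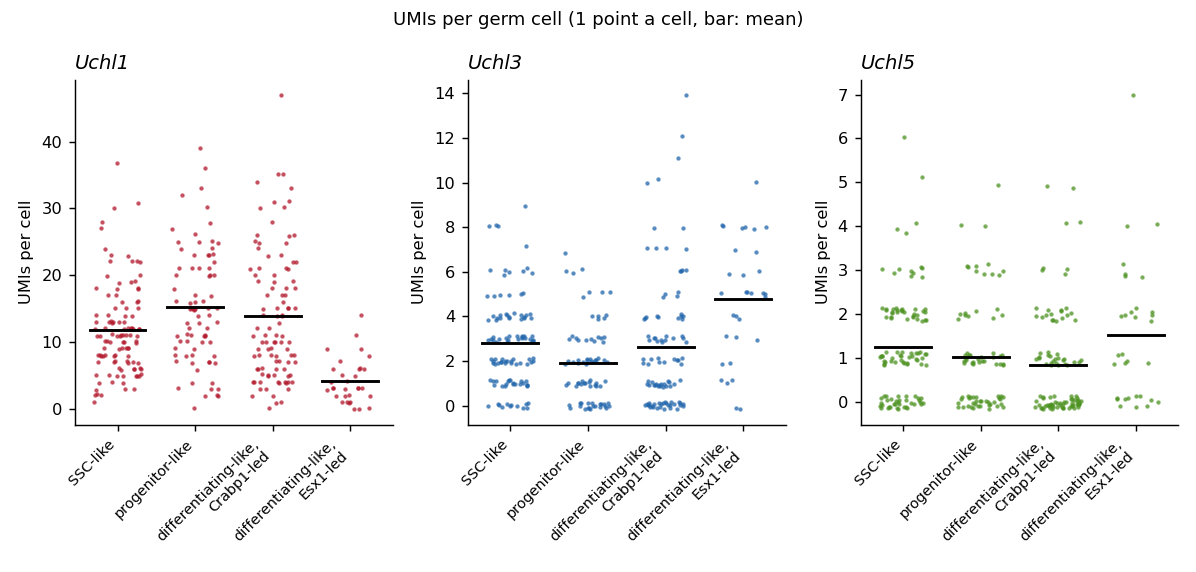
UMIs per cell of Uchl1, Uchl3 and Uchl5 (vertical axes, linear) in the 4 germ cell clusters, with 1 point for each cell, small random offsets and the mean as a black bar. The mean of Uchl1 was 4.16 UMIs in the Esx1-led cluster and 11.8 to 15.3 UMIs in the others, whereas Uchl3 had its highest mean, 4.78 UMIs, in the Esx1-led cluster.

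Counts of single cells gave the spread behind these means. In SSC-like cells the Uchl1 count had a median of 11 and a maximum of 37 UMIs, and 67 of 112 cells had at least 10 UMIs. In progenitor-like cells the median was 15 and the maximum 39, and 58 of 79 cells had at least 10. In the Crabp1-led cluster the median was 11 and the maximum 47, and 59 of 101 cells had at least 10. In the Esx1-led cluster the median was 3 and the maximum 14, and only 2 of 32 cells had at least 10 Uchl1 UMIs. Uchl3 reached 4 or more UMIs in 36 of 112 SSC-like cells, 13 of 79 progenitor-like cells, 29 of 101 cells of the Crabp1-led cluster and 22 of 32 cells of the Esx1-led cluster. Uchl5 was sparse, with a maximum of 7 UMIs in any germ cell.

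When the germ cells were placed in 4 bins of 81 cells by a score of the differentiation markers over the stem cell markers, without the cluster boundaries, Uchl1 had 489, 772, 905 and 855 CPM from the lowest to the highest bin. The intervals of the upper pair of bins, 853 to 958 and 801 to 913, overlapped. Uchl3 had 119, 118, 190 and 242 CPM over the same bins, and Uchl5 had 60.5, 53.8, 70.7 and 78.3 CPM. The median depth fell from 21182 to 11516 UMIs between the lowest and the highest bin, and in UMIs per cell Uchl1 had 10.3, 14.4, 14.2 and 11.3, Uchl3 2.51, 2.20, 2.99 and 3.21, and Uchl5 1.27, 1.0, 1.11 and 1.04. Stra8, a gene induced by retinoic acid that is among the score's markers, had 4.11 CPM in the lowest bin and 1279 CPM in the highest. The highest bin contained 23 of the 32 cells of the Esx1-led cluster and the third bin the other 9. The lower Uchl1 level of the Esx1-led cluster was therefore averaged with the other cells of the highest bin.

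**Figure D3:**
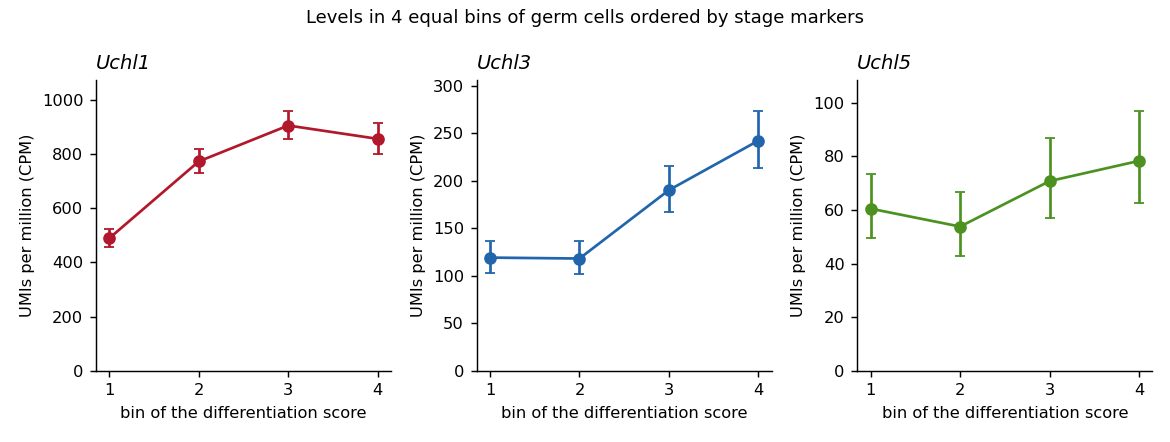
Levels in counts per 1000000 UMIs (CPM, linear axes that start at 0) of Uchl1, Uchl3 and Uchl5 in 4 bins of 81 germ cells ordered by the score of stage markers, with exact 95% Poisson intervals as bars. Uchl1 had 489 CPM in the lowest bin and 905 CPM in the third, and Uchl3 had its highest level, 242 CPM, in the highest bin.

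In the somatic compartment, Uchl1 had 82.8 CPM (71.4 to 95.4) in Sertoli-like cells, 17.1 CPM (11.3 to 24.6) in stromal-like cells, 17.6 CPM (9.35 to 30.02) in peritubular myoid-like cells, 19.4 CPM (9.29 to 35.6) in macrophage-like cells and 60.6 CPM (29.1 to 111) in T cell-like cells. The stromal-like, myoid-like and macrophage-like levels did not differ beyond counting error, and Sertoli-like cells had 4.85 times the stromal-like level (3.25 to 7.50). The T cell-like value rested on 10 UMIs in 26 cells, which also held 11 UMIs of Dazl, a germ cell RNA-binding protein gene. Within Sertoli-like cells, 1 cluster of 78 cells (cluster 4) had 204 CPM (172 to 241), whereas the clusters of 132 cells (cluster 2) and 45 cells (cluster 7) had 28.2 CPM and 36.2 CPM. In that cluster 49 of 78 cells (62.8%, 51.1 to 73.5%) had a Uchl1 UMI and 11 had 4 or more, and the 5 cells with the most UMIs held 28.4% of the count. Uchl3 did not follow, with 68.6, 73.9 and 76.8 CPM in clusters 2, 4 and 7, and Uchl5 had 14.1, 31.9 and 40.5 CPM. The ratio of cluster 4 over cluster 2 was 7.26 for Uchl1 (4.91 to 11.01), where 6.45% of 9040 genes were at least 2-fold higher and 6.21% lower. That for Uchl3 was 1.08 (0.741 to 1.55), and the Uchl1 ratio was 6.69 times it (3.88 to 11.8). The Uchl1 ratio was 3.18 times that of Uchl5 (1.40 to 7.19). Uchl5 was also higher in cluster 4 than in cluster 2, on 22 and 16 UMIs. The split between clusters 2 and 4 depended on the settings. The largest Sertoli-like cluster held 207 cells with vst variable genes, 213 with 20 principal components, 210 at resolution 0.3 and 224 with the count split. A separate cluster of 77 to 80 cells remained without a mitochondrial limit, with at least 200 or 1000 genes, with doublet calls kept and at resolution 1.2.

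Since free RNA from germ cells can give UMIs in other cells, Uchl1 was also set against Dazl in each class. Germ cells had 0.924 Uchl1 UMIs for each Dazl UMI (0.886 to 0.965), with 0.737 in SSC-like cells, 1.28 in progenitor-like cells, 1.17 in the Crabp1-led cluster and 0.288 in the Esx1-led cluster. Stromal-like cells had 1.40 Uchl1 UMIs for each Dazl UMI (0.761 to 2.62), macrophage-like cells 1.67 (0.549 to 5.58) and T cell-like cells 0.909 (0.346 to 2.36), whose intervals overlapped that of germ cells. Peritubular myoid-like cells had 3.25 (1.004 to 13.7) on 13 and 4 UMIs, with an interval that overlapped those of progenitor-like cells and the Crabp1-led cluster. At this depth the stromal-like, macrophage-like and T cell-like ratios could not be separated from that of all germ cells. The ratio itself ran from 0.288 to 1.28 between germ cell clusters. Whether free germ cell RNA gave these somatic UMIs was not tested. Sertoli-like cluster 4 had 23.5 Uchl1 UMIs for each Dazl UMI (10.5 to 65.1), on 141 and 6 UMIs, above every germ cell class. Cluster 2 had 1.23 (0.711 to 2.15), with an interval that overlapped that of germ cells. Cluster 7 had 2.83 (1.07 to 8.78) on 17 and 6 UMIs, above germ cells as a whole but with an interval that overlapped those of progenitor-like cells and the Crabp1-led cluster.

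**Figure D4:**
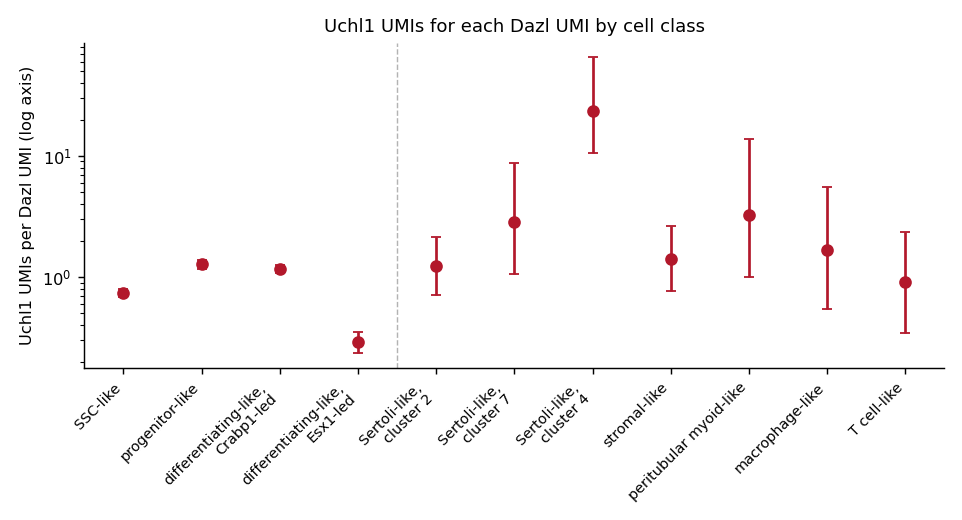
Uchl1 UMIs for each Dazl UMI (logarithmic axis) in the 4 germ cell clusters, left of the dashed line, and in the somatic classes with the 3 Sertoli-like clusters shown separately, and bars are exact 95% intervals. Sertoli-like cluster 4 had the highest value, 23.5, and the other classes ranged from 0.288 to 3.25. Its interval (10.5 to 65.1) overlapped that of peritubular myoid-like cells (1.004 to 13.7).

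Uchl3 varied less than Uchl1 across somatic classes, from 44.6 to 71.9 CPM against 17.1 to 82.8 CPM. Its levels were 71.9 CPM (61.3 to 83.7) in Sertoli-like, 53.6 CPM (43.0 to 66.0) in stromal-like, 44.6 CPM (30.7 to 62.6) in peritubular myoid-like, 56.2 CPM (37.6 to 80.7) in macrophage-like and 54.5 CPM (24.9 to 104) in T cell-like cells. Sertoli-like cells exceeded stromal-like cells by 1.34 times (1.03 to 1.76), and the other neighbours in this order did not differ beyond counting error. The intervals of SSC-like cells and of both differentiating-like clusters lay above those of all 5 somatic classes, and that of progenitor-like cells overlapped the T cell-like interval alone.

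Uchl5 showed a different somatic pattern. Macrophage-like cells had 67.8 CPM (47.2 to 94.3) and T cell-like cells 60.6 CPM (29.1 to 111), whereas stromal-like, Sertoli-like and peritubular myoid-like cells had 25.6, 24.8 and 21.6 CPM. The macrophage-like level was 2.73 times the Sertoli-like level (1.74 to 4.23), a comparison in which 13.0% of 9128 genes were at least 2-fold higher and 37.9% lower, and was near the level of all germ cells (germ over macrophage-like cells, 0.9503, 0.671 to 1.39). It rested on 35 UMIs in 35 cells, of which the 5 cells with the most held 54.3%. The macrophage-like over Sertoli-like ratio of Uchl5 was 11.5 times that of Uchl1 (5.21 to 27.8), and that of Uchl3 was 0.288 times that of Uchl5 (0.154 to 0.531). Macrophage-like cells were the deepest somatic class, with a median of 13010 UMIs per cell.

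The share of cells with at least 1 UMI also depended on depth, with a median of 18216.5 UMIs in germ cells and 8193.5 in somatic cells. Uchl1 was found in 98.5% of germ cells (96.4 to 99.5%) and 23.8% of somatic cells (20.5 to 27.5%). After cells were thinned to 5000 UMIs, which left out 45 germ and 48 somatic cells, these shares were 91.4% and 16.3%. Uchl3 was found in 80.6% of germ and 37.9% of somatic cells, and in 52.9% and 24.2% after thinning. Uchl5 was found in 58.6% and 20.6%, and in 27.8% and 12.5% after thinning. At equal depth, Uchl1 was detected in 71.7% of cells of the Esx1-led cluster (52.0 to 85.8%) and 99.4% of the Crabp1-led cluster (94.6 to 100%), where thinning left out 1 of 32 and 35 of 101 cells. Uchl3 was detected in 82.4% and 63.6% of the same cells, with intervals that overlapped (66.3 to 94.5% and 50.9 to 75.1%).

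The other family genes were less germ-biased than Uchl1. Bap1, which encodes a nuclear ubiquitin C-terminal hydrolase that acts on histone H2A, had a germ over somatic ratio of 1.77 (1.34 to 2.36). Uchl4 had 58 UMIs in germ cells and 24 in somatic cells, a ratio of 2.33 (1.43 to 3.92), which was 0.887 times that of Uchl3 (0.532 to 1.52). Given the shared sequence, its counts are uncertain and the origin of its UMIs was not tested. Uchl1os, an antisense RNA gene that overlaps the 5′ end of Uchl1 on the other strand, had 18 UMIs in 15 germ cells and 0 of 5358932 somatic UMIs, which allows a level of up to 0.560 CPM. The germ cell level of 3.24 CPM (1.92 to 5.12) was 5.79 times that limit, and the lower end of its interval was 3.43 times it. The strand setting of the counting was not given in the sources used here.

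To place the members in their pathway, 107 further genes with at least 100 UMIs were examined. These were genes of ubiquitin and NEDD8 metabolism and of the proteasome, and partners of UCHL5 that included INO80 subunits. Of the 107 genes, 26 (24.3%) were at least 2-fold higher in germ cells and 4 (3.74%) at least 2-fold lower. Over all 9182 genes these shares were 23.6% and 24.8%. The median log2 ratio of the lists was 0.50, against 0.12 over all genes. One pathway gene, Usp26, had a higher ratio than Uchl1. Of the ubiquitin precursor genes, Ubb had a ratio of 0.821 and Rps27a 1.01. Of the ubiquitin activating enzymes, Uba1y, the Y-linked E1 gene, was 13.2-fold higher in germ cells (9.29 to 19.5), whereas its X-linked homolog Uba1 had a ratio of 1.37 and Uba6 1.50.

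Of the NEDD8 pathway, which UCHL3 can process, 3 of 8 genes were at least 2-fold higher in germ cells and 1 was lower. Among all 9182 genes, 23.6% were at least 2-fold higher and 24.8% at least 2-fold lower. Nae1, a subunit of the NEDD8 activating enzyme, had a ratio of 3.66 and Senp8, a NEDD8 protease, 2.04, whereas Nedd8 itself had 0.925 and Ube2m, a NEDD8 conjugating enzyme, 0.311. Of the partners of UCHL5, 1 of 13 was higher and 1 lower. Adrm1, its receptor on the proteasome, had a ratio of 1.31 (1.19 to 1.44) and Nfrkb, its partner in INO80, 1.21 (0.939 to 1.56). The highest ratios of this list were 2.41 for Ruvbl1, a helicase subunit, and 1.45 for Ino80e, and the lowest were 0.486 for Ino80d and 0.834 for Ino80c.

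All 29 structural proteasome genes examined had a ratio above 1, as did 53.1% of all 9182 genes. For the counts past 2-fold below, the shares over all genes were 23.6% higher and 24.8% lower. Of the 20S core genes, 4 of 14 passed 2-fold, with Psma4 (2.16) and Psmb2 (2.12) highest and Psma3 (1.04) and Psma1 (1.25) lowest. Of the 19S genes, 6 of 15 passed, with Psmd2 (3.96) and Psmd11 (2.74) highest and Psmd3 (1.01) and Psmd8 (1.08) lowest. Of the proteasome-bound deubiquitinases, Usp14 had a ratio of 2.28 and Psmd14 1.58, and Psmd7, which encodes the inactive partner subunit of PSMD14, had 1.36. Of the USP deubiquitinases, 8 of 36 were at least 2-fold higher and 2 lower. Usp26, an X-linked gene, had 1953 UMIs in germ cells and 4 in somatic cells, a ratio of 471 (184 to 1730), followed by Usp2 (3.79), and the lowest were Usp46 (0.116) and Usp10 (0.349). Of the OTU and Josephin deubiquitinases, 3 of 11 were higher and 0 lower, with Otud3 (3.74) and Atxn3 (2.82) highest and Josd2 (0.606) and Vcpip1 (0.865) lowest.

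**Figure D5:**
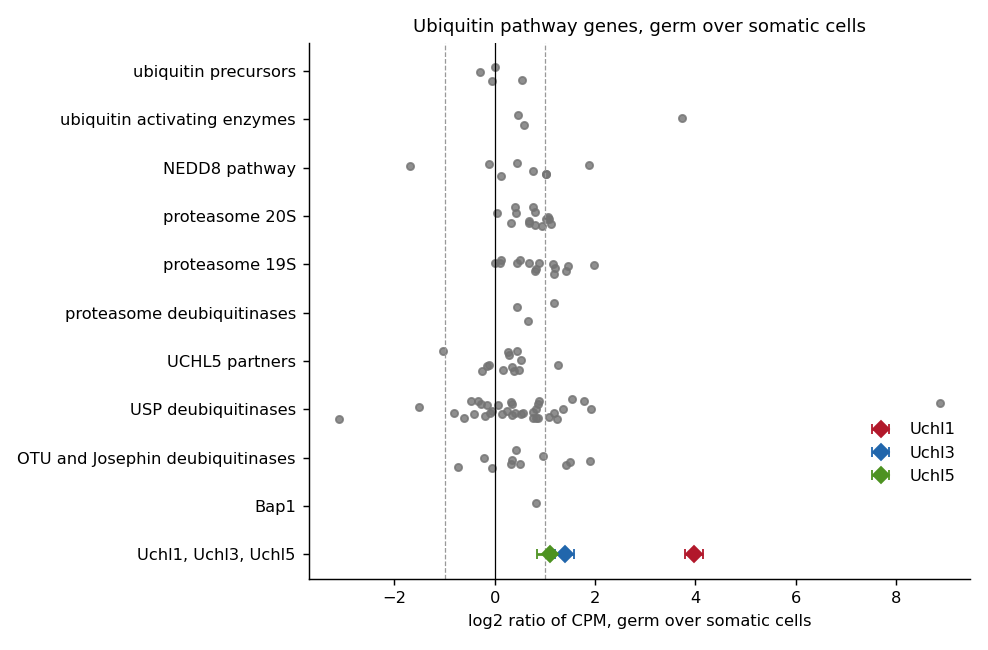
Log2 ratio of CPM of germ over somatic cells for genes of the ubiquitin, NEDD8, proteasome and UCHL5 partner lists (grey points, 1 for each gene, Usp14 shown in 2 lists) and for Uchl1, Uchl3 and Uchl5 (diamonds with exact 95% intervals), with dashed lines at 2-fold. Uchl1 lay at 3.97, exceeded by Usp26 alone, whereas Uchl3 (1.39) and Uchl5 (1.11) lay among the other genes.

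Between the differentiating-like clusters, 6 of the 107 listed genes were at least 2-fold higher in the Esx1-led cluster and 11 at least 2-fold lower, against 12.0% and 18.9% of all genes. Bap1 was among the lower genes, at 0.281 times the Crabp1-led level (0.0734 to 0.773). Usp26 had a ratio of 1.38 (1.15 to 1.64) between these clusters, where Uchl1 had 0.295.

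The genes whose pattern over the 8 named classes most resembled each member were sought among 6693 genes with at least 200 UMIs. Pearson's r of log2(CPM + 10) was used, which does not compare the size of the differences between classes. The classes shared 1 library, and their depths differed. Both differentiating-like clusters were pooled as 1 class here. The opposite differences of Uchl1 and of Uchl3 and Uchl5 between those clusters therefore did not enter r. For Uchl1 they were Mrpl15 (r of 0.995), Rbm38 (0.995), Shq1 (0.993), Rnps1 (0.989) and Srfbp1 (0.989), and 309 genes had an r above 0.95. For Uchl3 they were Dlg1 (0.998), Pcnxl4 (0.991), 2310035C23Rik (0.986), Dhps (0.986) and Pafah1b2 (0.985), with 67 genes above 0.95. For Uchl5 they were H2-T23 (0.978), Taldo1 (0.969), Sptlc2 (0.962), Cmpk1 (0.962) and Ccnd1 (0.959), with 6 genes above 0.95. H2-T23, for instance, had 42.6 CPM in macrophage-like and 3.92 CPM in Sertoli-like cells. The members resembled each other less, with an r of 0.894 for Uchl1 with Uchl3, 0.588 for Uchl1 with Uchl5 and 0.614 for Uchl3 with Uchl5.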

How the data were processed

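Testis cells of 3 pooled mice at postnatal day 8 were profiled as 1 Chromium library. The authors aligned the reads to mm10 (GRCm38) with Cell Ranger 2.1.0, per the labels, and deposited UMI counts per gene and barcode without normalization. Barcodes with under 500 genes, at least 10% mitochondrial UMIs or a doublet call (4 barcodes; scrublet in scanpy 1.11.5, expected rate 0.01) were left out. Cells were clustered with Seurat 5.3.0 in R 4.3.3 (14 principal components, resolution 0.5), with Uchl1, Uchl3 and Uchl5 held out of the variable genes and the markers, and germ cells were clustered again. Clusters were named from the mean over markers of their standardised difference in log-normalized level. Leading genes were those found in at least 25% of a cluster's cells. They were ranked by the difference in mean log-normalized level from the other cells clustered. This choice was made after a ranking by pooled CPM, in which 1 hemoglobin-rich barcode led the largest germ cell cluster, left that cluster unnamed.

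CPM were summed UMIs of a class per 1000000 UMIs, with exact Poisson intervals. Ratios had exact conditional binomial intervals, shares exact binomial intervals and paralog comparisons exact conditional odds ratios (scipy 1.17.1), all at 95%. With 1 library no test was possible. The interval functions were tested on simulated data. Named genes were the members, the 2 highest and 2 lowest germ over somatic ratios of each list, the 5 nearest genes by r, and stage genes. Some genes that this rule would name are not reported here. The members and lists were chosen with earlier results of these data known. Sequences were read from GENCODE M21 transcripts. Alternatives covered filters, clustering, a count split, denominators and thinning.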

Additional observations from a re-analysis of the deposited data

How the results depend on the processing

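No paired analysis was possible because all cells came from a single library. Ratios are given here on the log2 scale. Of 276 recomputed values, 226 stayed within the 95% interval of the reported one, 47 moved outside it without a change of sign, and 3 whose reported interval lay to one side of 0 changed sign. Some of the 226 could not move. No member was among the variable genes of the main run, so allowing the members there repeated it exactly. Resolution 0.3 left the germ and somatic cells the same, and with them their ratios. The germ over somatic ratio of Uchl1 (3.97) was 5.44 with a mitochondrial limit of 5%, which kept 67 germ and 54 Sertoli-like cells. It was 3.69 with germ cells taken by a UMI of Ddx4 or Dazl, 4.90 in mean UMIs per cell and 4.96 without Sertoli-like cluster 4. That of Uchl3 (1.39) was 2.01 with the 5% limit and 2.33 in UMIs per cell, and that of Uchl5 (1.11) was 2.04 in UMIs per cell. The germ over somatic ratio of Uchl1 relative to Uchl3 (2.57) was 3.42 with the 5% limit and 3.51 without cluster 4. Relative to Uchl5 (2.85) it was 4.23 and 3.83 under the same settings and 2.47 with Ddx4 or Dazl, and that of Uchl3 relative to Uchl5 (0.28) was 0.80 with the 5% limit.

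The progenitor-like over SSC-like ratio of Uchl1 (0.63) was 0.78 without a mitochondrial limit, 0.78 with at least 200 genes, 0.77 with 2000 variable genes by vst, 0.95 with 20 principal components, 0.88 with the count split (clusters from some UMIs of each cell, levels from the others), 0.84 with the count split at resolution 1.2 and 0.37 in UMIs per cell. That of Uchl3 (-0.32) changed sign to 0.021 with 20 components, and the cause was not tested. The differentiating-like over SSC-like ratio of Uchl1 (0.76) was 0.61 with at least 200 genes, 0.89 by vst, 1.15 with 20 components, 0.49 at resolution 0.3 and 0.62 without the low depth germ cluster, and changed sign to -0.039 in UMIs per cell. That of Uchl3 (0.98) was 0.70 with the count split at resolution 1.2 and 0.17 in UMIs per cell. That of Uchl5 (0.47) changed sign to -0.33 in UMIs per cell, in which the lower depth of differentiating-like cells is not divided out. In the count split the progenitor-like cells included a shallow cluster of 42 cells, and at resolution 1.2 of the count split a shallow cluster of 50. At resolution 0.3 no progenitor-like cluster was named, and the SSC-like cluster held 194 cells.

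The ratio of the Esx1-led over the other differentiating-like cells, taken as the differentiating-like cluster with the highest marker score over the rest, was -1.76 for Uchl1. It was -1.47 with at least 200 genes, -1.35 with at least 1000 genes, -1.32 at resolution 1.2 and -0.98 with the count split at that resolution. As a mean over cells of their CPM it was -2.05. By vst it was -0.75, where 81 cells were set against 70 cells of low depth, which is another contrast. By vst Uchl3 (0.83) had 0.48 and Uchl5 (0.84) had 0.0089. With resolution 0.3 and the planned count split there was no second differentiating-like cluster, so these gave no value. The 5% limit left all 67 germ cells in an unnamed cluster, so it gave no value for any ratio between germ stages. Thinning to 5000 and 3000 UMIs gave shares of 91.4% and 82.9% of germ and 16.3% and 11.2% of somatic cells for Uchl1, 52.9% and 37.2% against 24.2% and 15.7% for Uchl3, and 27.8% and 18.2% against 12.5% and 7.72% for Uchl5. The UMIs per cell, the red blood cell barcode, the low depth cluster, cluster 4 and the count split at resolution 1.2 were chosen after seeing the data.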

Other observations

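The 50 barcodes left out by the filters held 153 Uchl1, 32 Uchl3 and 12 Uchl5 UMIs, or 345, 72.1 and 27.0 CPM, and 48.0% of them had a Uchl1 UMI.

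In the RefSeq promoter sequences of GRCm38.p6, which cover 300 bases around each start, Uchl1 had 9 CpG dinucleotides, Uchl3 27 and Uchl5 36, against a median of 7 over 32851 promoters. The GC content of these promoters was 50.7% for Uchl1, 60.0% for Uchl3 and 73.3% for Uchl5, against a median of 52.7%.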
